A study of Mus musculus with 13 samples.

Results

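The clustered protocadherin genes are 3 neighbouring gene families, alpha, beta and gamma, on mouse chromosome 18. Their R-loop peaks were examined in N2a cells, a mouse neuroblastoma line. Members were taken by name from the GENCODE vM1 annotation of the genome build mm9, as genes on chromosome 18 named Pcdha, Pcdhb, Pcdhga, Pcdhgb or Pcdhgc followed by a number or the letter c. The rule found 25 members among 37273 annotated genes, 2 alpha, 22 beta and 1 gamma, of which 24 are protein-coding and Pcdhb20 is a pseudogene. R-loops are stretches of DNA in which RNA has paired with 1 strand and pushed the other aside. They were mapped by DRIP-seq, in which the S9.6 antibody pulls RNA/DNA hybrids out of cut genomic DNA. Peak lists of 9 untreated libraries were compared, 3 each for siScramble (genotype WT), siDDX1 (DDX1 knockdown) and siEXOSC3 (EXOSC3 knockdown), along with 1 library per group whose DNA had been digested with RNase H as a negative control. EXOSC3 belongs to the RNA exosome, which degrades and trims RNA, and DDX1 is thought to be a helicase acting on RNA. The groups share the cell line, the transfection with siRNA and the set of restriction enzymes, and the depletion reached by each siRNA cannot be read from peak lists. Per the study's methods, 3 plates of cells were seeded for each condition and treated as biological replicates, while the labels only number the libraries of a group. The p-values measure the spread between these libraries.

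In 12 of 12 lists, sample title and peak names state different treatments. The title siScramble goes with peak names of siDDX1, the title siDDX1 with names of siEXOSC3, and the title siEXOSC3 with names of siScramble. Group names below are those of the titles. The same libraries fall together under either naming, so tests across the 3 groups keep their values and the names of the groups alone depend on the choice. Untreated lists held between 23882 and 42571 peaks and RNase H lists between 3811 and 8034. Read depth is not known from these lists, so an exon without a peak is one where no enrichment was called, not one shown to be free of R-loops. In such bulk libraries, hybrids in few cells and fewer hybrids per cell cannot be told apart. Of the neuroblastoma markers, first exons of the transcription factors Hand2 and Phox2a overlapped peaks in 9 and 8 of the 9 untreated libraries, while 7 of 9 such markers were not called. The share called in at least 1 untreated library was 22.2% for these markers and 27.4% for protein-coding genes. None of 8 markers of glia, microglia, lymphocytes, endothelium or fibroblasts was called in any library, although a peak is no measure of RNA level.

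Clustered protocadherins are cell adhesion proteins of neurons that help a cell tell its own branches from those of other cells. In the alpha and gamma clusters, each variable first exon has a promoter of its own and is spliced to constant exons shared by the whole cluster, which encode the common cytoplasmic end of the protein. Beta genes carry a variable exon alone and have no shared exons. In most neurons a few variable exons are chosen from each cluster, a choice that involves the zinc finger protein CTCF, the cohesin ring and DNA methylation, while the C-type exons at the ends of the alpha and gamma clusters are regulated differently. The annotation used here holds most alpha and gamma variable exons as transcripts of Pcdha11 and Pcdhgc5, so exons are called below by their transcript names. It gives 42 distinct first exons, 10 in alpha, 23 in beta and 9 in gamma. Those of Pcdhb8-202 and Pcdhb20 are short, at 10 and 182 bases, and the others are between 2319 and 7131 bases long.

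R-loop peaks were nearly absent from the first exons of these genes. A first exon was counted as called in a library when a peak covered at least 1 of its bases. By the first exon of the transcript with the longest coding sequence, 2 of 25 members (8%) were called in at least 1 untreated library, against 20.2% of all genes and 27.4% of protein-coding genes. By that exon, no member was called in 3 or more of the 9 untreated libraries, against 4340 of 22367 protein-coding genes. In all 9 untreated libraries, 6.4% of protein-coding genes were called. The other 23 members had no peak on that exon in any of the 12 libraries. Per untreated library, between 0 and 8% of the members were called, and the median was 0, while the share of protein-coding genes lay between 10.1% and 19.9%. Over all 42 first exons, 4 were called in at least 1 untreated library, which came to 7 calls among 378 combinations of exon and library. Overlapping first exons of a gene were counted once, by the bounds of the transcript with the longest coding sequence. With the full extent of every annotated first exon of a gene counted, Pcdhgc5 was called in 6 of the 9 untreated libraries and Pcdha11 in 1.

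**Figure D1:**
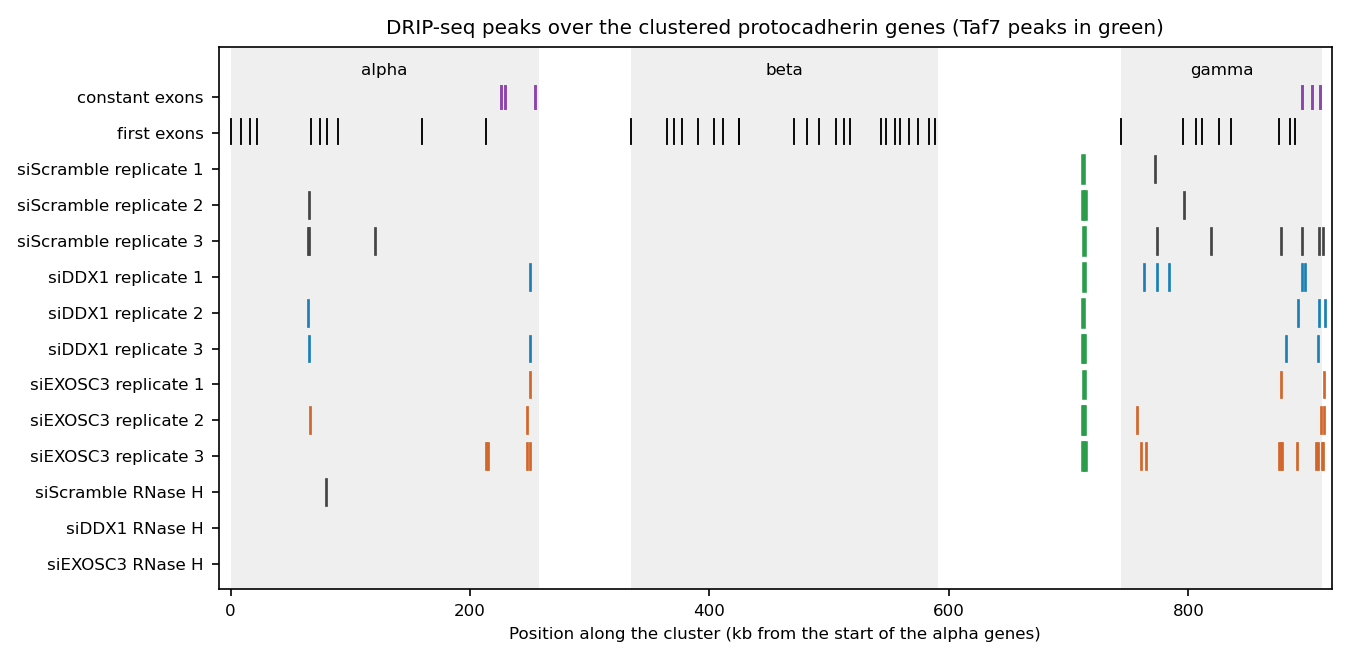
Peaks of the 12 libraries (rows, by title) along the protocadherin cluster, in kb from the start of the alpha genes, with the annotated first exons in black and the shared constant exons in purple at the top. Each tick is the centre of 1 peak. The beta genes hold 0 peaks in 12 libraries, and the green ticks of Taf7, a gene between beta and gamma, are present in 9 of 9 untreated libraries.

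In the alpha cluster, 1 of 10 first exons was called. The first exon of Pcdha11-202 (chr18:37303623-37306184, plus strand, 2562 bases) lies last in the cluster, the place of a C-type exon in the textbook order. A peak covered 420 of its bases in siEXOSC3 replicate 3, and 0 bases were covered in the other 8 untreated libraries. This peak began 982 bases after the exon's start, with a fold enrichment of 5.06, which stood at percentile 23.3 of the folds in its own list. A further peak of the same library, chr18:37302702-37303394 with a fold of 4.5, ended before the exon. The first exon of the only other alpha gene in the annotation, Pcdha3 (chr18:37105801-37108230), was covered in no library.

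All 22 beta genes, Pcdhb1 to Pcdhb22, were without a peak. None of 207 combinations of a beta first exon and an untreated library was a call. The beta genes occupy chr18:37424652-37681073, which is 256 kb, and no peak of any of the 12 libraries lay in that span. No beta start had a peak within 1000 bases in any of them.

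In the gamma cluster, 3 of 9 first exons were called. By the bounds used, the first exon of Pcdhgc5-208 (chr18:37966064-37968631, 2568 bases) had the most calls. Peaks covered 270 of its bases in siScramble replicate 3, 353 in siEXOSC3 replicate 1 and 1015 in siEXOSC3 replicate 3, and 0 in the other 6 untreated libraries. The libraries with a peak belong to 2 groups, and both groups also hold a library without one. The first exon of Pcdhgc5-203 (chr18:37979200-37981788, 2589 bases), the last of the cluster, was covered over 75 bases in siDDX1 replicate 2 and over 298 bases in siEXOSC3 replicate 3, and over 0 in the other 7. Pcdhgc5-206 (chr18:37885360-37887970, 2611 bases), which stands near the front of the cluster, was covered over 459 bases in siScramble replicate 2 alone.

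The last 2 alpha and the last 3 gamma first exons, where C-type exons stand in the textbook order, held 6 of the 7 calls in 3 of 5 exons. The other 37 first exons held 1 call, and 14 of those 37 are alpha or gamma exons. This grouping by position was made after the values were seen and is a description without a test. Libraries contributed unequally. siEXOSC3 replicate 3, the longest list, gave 3 of the 7 calls, and siScramble replicate 1, siDDX1 replicates 1 and 3 and siEXOSC3 replicate 2 gave 0. Without siEXOSC3 replicate 3, 3 of the 42 exons and 1 of the 25 members remained called.

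**Figure D2:**
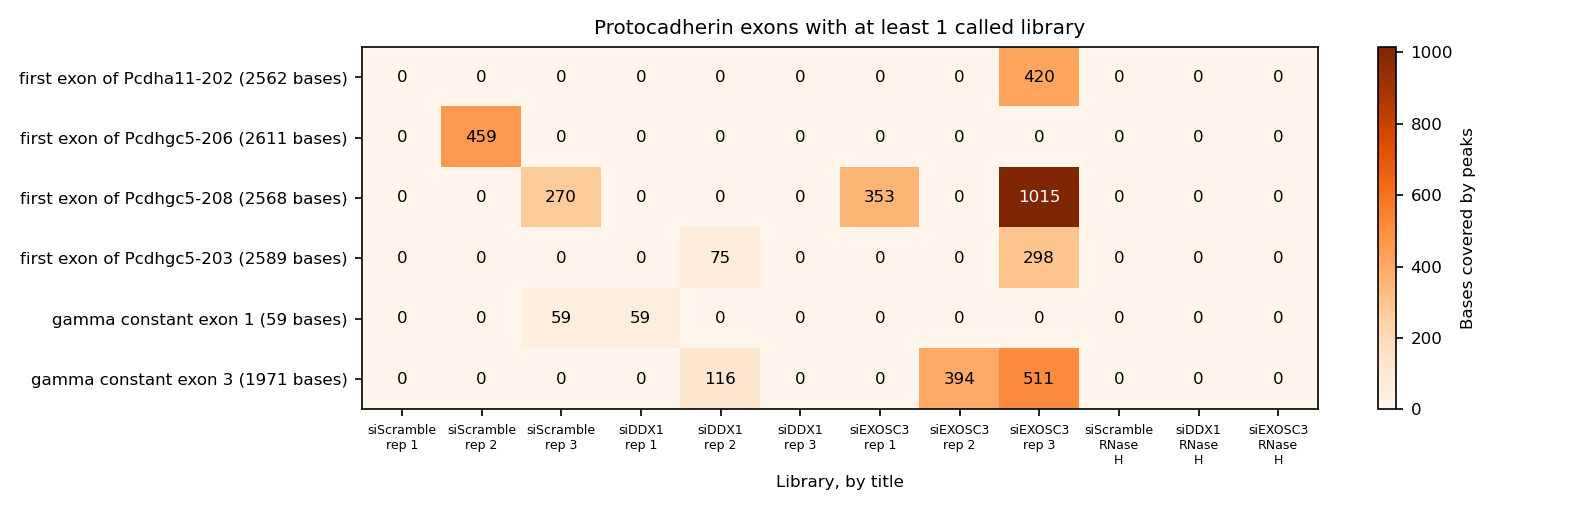
Bases covered by peaks (number and shade) in each of the 12 libraries (columns, by title) for the 4 first exons and 2 constant exons that were called in any untreated library (rows, with their lengths). Most cells are 0, the highest is 1015 bases of Pcdhgc5-208 in siEXOSC3 replicate 3, and the 3 RNase H columns are 0 throughout.

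No difference at the members' first exons was detected after depletion of DDX1 or EXOSC3. Calls were too few for the test to show one. Members called per library were 0, 0 and 0 in siScramble. They were 0, 1 and 0 in siDDX1 (0.333 ± 0.577, SD, n = 3) and 0, 0 and 2 in siEXOSC3 (0.667 ± 1.15, SD, n = 3), so the groups overlapped. With every annotated first exon of a gene counted, the means were 0.667, 0.667 and 1, and with lists of equal length they were 0, 0.333 and 0. Covered bases of Pcdha11 averaged 140 ± 242 in siEXOSC3 (SD, n = 3) and 0 in the other groups, with p = 1 in an exact permutation F test over the 280 ways to split the 9 libraries, and adjusted p = 1. For Pcdhgc5 the siScramble libraries had 0 covered bases, siDDX1 averaged 25 ± 43.3 and siEXOSC3 averaged 99.3 ± 172 (SD, n = 3). Its exact permutation F test gave p = 1 and adjusted p = 1. An exon with a peak in 1 library, or in 2 libraries of different groups, has p = 1 in this permutation test by construction. Neither tested member could thus have fallen under 0.05, and the remaining 23 members could not be tested. Over all 7523 genes tested, 130 (1.73%) had an unadjusted p under 0.05 and none passed Benjamini-Hochberg adjustment, where the smallest adjusted p was 1.

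No member was all-or-none between groups, that is, with its first exon called in each of the 3 libraries on one side and never on the other. Such all-or-none exons were rare among all genes tested. They made up 0.12% for siDDX1 over siScramble and 0.359% for the reverse, 1.34% for siEXOSC3 over siScramble and 0.253% for the reverse, and 1.21% for siEXOSC3 over siDDX1 and 0.292% for the reverse. For 3 libraries against 3, the smallest exact two-sided p is 0.1, so no all-or-none exon could have passed a threshold of 0.05 as a single comparison of 2 groups.

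RNase H digestion removes the RNA of a hybrid, and a peak that depends on hybrids should be lost after it. None of the 42 first exons was covered in any of the 3 RNase H libraries, where the share of protein-coding first exons called was itself between 0.165% and 0.389%. With the digested library exchanged for each library of its own group (64 assignments, exact two-sided permutation test), the mean number of covered bases fell by 46.7 for Pcdha11 (p = 1, adjusted p = 1) and fell by 41.4 for Pcdhgc5 (p = 0.812, adjusted p = 1). Of 7642 genes tested in this way, 32.3% were lower after digestion with an unadjusted p under 0.05. With peaks in 1 and 2 libraries, neither member could have reached that threshold in this test. No gene passed adjustment, where the smallest adjusted p was 0.0667 and the smallest p that 64 assignments allow is 0.015625. The single RNase H peak inside the whole cluster, chr18:37169568-37169815 in the siScramble RNase H library, had a fold of 6.69. It lay over an exon of Gm10545, less than 1 kb before the first exon of Pcdha11-205, where no untreated library had a peak.

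The shared constant exons were called more often in gamma than in alpha. Constant exons 1, 2 and 3 of the alpha cluster (59, 89 and 2712 bases) were covered in 0 of 9 untreated libraries. Gamma constant exon 1 (chr18:37984675-37984733) was covered over its whole 59 bases in siScramble replicate 3 and siDDX1 replicate 1, by peaks with folds of 4.82 and 5.24, and in no other library. Gamma constant exon 2 (89 bases) was never covered. Gamma constant exon 3 (chr18:37999557-38001527, 1971 bases), which ends the gene, was covered over 116 bases in siDDX1 replicate 2, 394 in siEXOSC3 replicate 2 and 511 in siEXOSC3 replicate 3, and over 0 in the 6 other untreated libraries.

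On gamma constant exon 3, siEXOSC3 averaged 302 ± 268 covered bases, siDDX1 averaged 38.7 ± 67 and siScramble had 0 (SD, n = 3). siEXOSC3 thus held the 2 highest libraries, but its replicate 1 was at 0 like all siScramble libraries. The difference was within the spread between libraries (exact permutation F test over 280 splits, p = 0.25). Without siEXOSC3 replicate 1 the same exact test gave p = 0.0357, unadjusted, and leaving out any other library gave p between 0.143 and 0.464. No constant exon was covered in an RNase H library.

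Apart from those of Taf7, most untreated peaks in the cluster lay in introns, a count not set against intron length. The whole span, chr18:37089939-38001527 and 912 kb long, held 56 untreated peaks, between 2 and 15 per library. Of these, 13 belonged to Taf7 and 43 to the rest of the span. Among the 43, 29 lay in introns of Pcdha11 or Pcdhgc5, 10 touched a first exon, 3 touched gamma constant exon 3 without a first exon and 1 lay over an exon of Gm16882. Introns also make up most of the length of Pcdha11 (257 kb) and Pcdhgc5 (168 kb), so these counts show no preference for introns. The count of 10 includes peaks over the long first exon of Pcdhgc5-209, which runs on into gamma constant exon 1. Peaks covered between 0.189% and 0.82% of the span per untreated library. The alpha genes held 15 untreated peaks, from 0 in siScramble replicate 1 to 4 in siEXOSC3 replicate 3, and the gamma gene held 28, from 1 to 9.

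These peaks were weak within their own lists. The fold enrichment of the 43 peaks ran from 3.49 to 7.77 with a median of 4.35, against library medians between 5.24 and 6.41. Their folds had a median percentile of 20.4 in their own lists, and the highest stood at percentile 81. Their −log10 q-values had a median of 3.43. At a threshold of 5 for −log10 q, 10 of the 43 peaks were left and 0 of the 42 first exons was called. With each untreated list shortened to its 23882 strongest peaks, 12 of the 43 were left and 1 first exon was called.

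**Figure D3:**
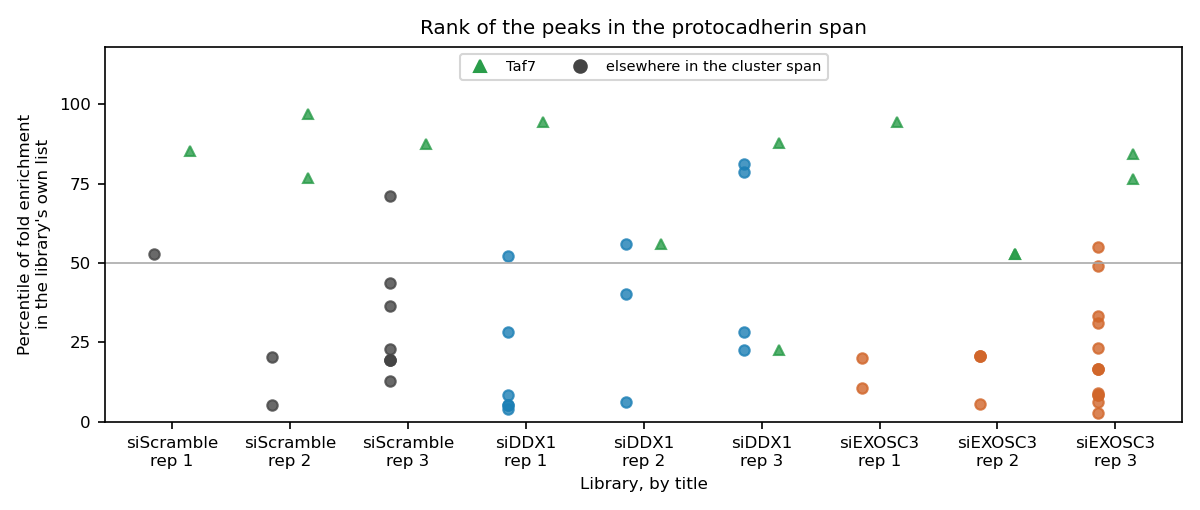
Percentile of each peak's fold enrichment within its own list (vertical axis) for the 9 untreated libraries (horizontal axis, by title). Circles are the 43 peaks of the protocadherin span apart from Taf7 and triangles are the 13 peaks of Taf7, with medians at percentiles 20.4 and 84.2.

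A few intronic places recurred between libraries. The peaks of the span merged into 31 regions, of which 23 were called in 1 library, 8 in at least 2 and 4 in at least 3. Regions up to 1000 bases apart were then joined over the span and 5 kb on either side, a choice made after the peaks had been seen. An alpha intron, chr18:37154271-37156203, lies before the first exon of Pcdha11-207 and held peaks in 5 of 9 libraries, 2 siScramble, 2 siDDX1 and 1 siEXOSC3, with folds from 3.69 to 6.63. The intron between alpha constant exons 2 and 3 held peaks at chr18:37339483-37340681 in 4 of 9 libraries, 0 siScramble, 2 siDDX1 and 2 siEXOSC3, with folds from 3.49 to 7.75. In that intron, chr18:37337442-37338025 was called in siEXOSC3 replicates 2 and 3. Each group that had peaks at the 4-library place also had a library without one.

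Peaks also lay near each other at the 3′ end of the gamma gene. Without joining, the gamma region called most often was within the first exon of Pcdhgc5-208, in 3 libraries. With joining, chr18:37997679-38003974 took in the last gamma intron, constant exon 3 and the facing 3′ end of Diap1, a formin gene on the opposite strand, and held 11 peaks of 6 libraries with folds from 3.67 to 7.77. Within the gamma gene lay 6 of these peaks, from 1 siScramble, 2 siDDX1 and 2 siEXOSC3 libraries. The other 5 lay past its end, and siEXOSC3 replicate 1 had a peak there alone. The peaks of different libraries were often side by side rather than overlapping. No RNase H library had a peak there.

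Between the last alpha peak and Taf7, no untreated library had a peak over 461 kb (chr18:37340682-37801471). This stretch holds the starts of 22 protein-coding genes, of which 21 are beta protocadherins and the other is Slc25a2, a mitochondrial carrier. Across the genome, 69474 stretches without a peak lay between neighbouring untreated peaks, and their median length was 1.46 kb. Stretches at least as long as this one numbered 1219, and 920 of them held at most 5 protein-coding starts. Stretches with at least as many starts numbered 49, counting this one. Of these 49, 2 were as long or shorter, again counting this one. Among the 40 stretches with the most starts, olfactory receptor genes (Olfr) were the most frequent family name in 17 and vomeronasal receptor genes (Vmn) in 4. Both are further families of tandem copies. These counts describe the lists and were not tested.

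Taf7, which encodes a subunit of the general transcription factor TFIID, lies between the beta and gamma genes. The gene is on the minus strand at chr18:37800556-37803858. Peaks covered 1470, 1987 and 2387 of its bases in siScramble, 2387, 1470 and 1148 in siDDX1 and 2387, 983 and 1421 in siEXOSC3, and 0 in each of the 3 RNase H libraries. All 9 untreated libraries thus had a peak over the gene, and the groups overlapped. By its first exon alone, the measure used for the members, Taf7 was called in 5 of 9. Its 13 peaks had folds from 4.53 to 16.7, with a median of 8.85. The gene begins 119 kb past the end of the beta genes.

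Genes around the cluster were called at a higher share than its members. Of 34 other protein-coding genes inside the span or within 500 kb of it, Pcdh1 and Pcdh12 among them, 16 (47.1%) were called in at least 1 untreated library and 13 in at least 3. Rnf14, which encodes a ubiquitin ligase, was called in 9 of 9. Of the neighbours that start inside the span, Taf7 was called in 5 of 9, and Gm10545, Slc25a2 and 3222401L13Rik in none. Among 493 other protein-coding genes of chromosome 18, 28.4% were called. Per untreated library, the share of the 34 neighbours ran from 5.88% to 38.2%. In siDDX1 replicate 2, where the neighbours' share was lowest, 4% of the members were called.

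Protocadherins outside the clusters were also rarely called. Of 12 non-clustered protocadherin genes in the annotation, 1 (8.33%) was called in any untreated library. That gene, Pcdh1, was covered over 173 bases in siDDX1 replicate 3 and over 311 bases in siEXOSC3 replicate 3, and a peak lay within 1000 bases of its start in 6 of 9 libraries. Pcdh7, Pcdh8, Pcdh9, Pcdh10, Pcdh11x, Pcdh12, Pcdh15, Pcdh17, Pcdh18, Pcdh19 and Pcdh20 had no call. As further families, 2 of 40 Hox genes (5%) and 0 of 1113 olfactory receptor genes were called in an untreated library. These 2 families were picked after the values of the members were known.

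Genes for proteins that act on protocadherin choice were called more often. Of 16 such genes, 11 (68.8%) were called in at least 1 untreated library and 7 in at least 3. Ctcf was called in 9 of 9, with its whole first exon of 142 bases covered in 8 libraries and 10 bases covered in siDDX1 replicate 2. Pds5a and Nipbl, which encode a cohesin regulator and the cohesin loader, were called in 7 of 9 each, and Stag1, a cohesin subunit, in 6. Dnmt3b, a DNA methyltransferase, Wiz, Smc3, Stag2 and Pds5b were called in none. Within 1000 bases of the start, 14 of the 16 (87.5%) had a peak in at least 1 untreated library, against 34.2% of protein-coding genes. Dnmt3b and Wiz had none there either.

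Rest, which encodes a repressor of neuronal genes, was the regulator with a pattern by group. Its first exon was covered over all 298 bases in 3 of 3 siEXOSC3 libraries and over 0 in the 3 siScramble and 3 siDDX1 libraries. On this exon the groups did not overlap. Within 1000 bases of the start, siDDX1 replicate 1 was covered as well, over 312 bases, against 1706, 1417 and 1460 in siEXOSC3, so the pattern was not all-or-none there between siEXOSC3 and siDDX1. By its first exon, Rest was among the 1.34% of genes that were all-or-none for siEXOSC3 over siScramble and the 1.21% for siEXOSC3 over siDDX1 (exact permutation F test, p = 0.0357, adjusted p = 1). By the names inside the lists, the libraries with the peak would be siScramble.

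**Figure D4:**
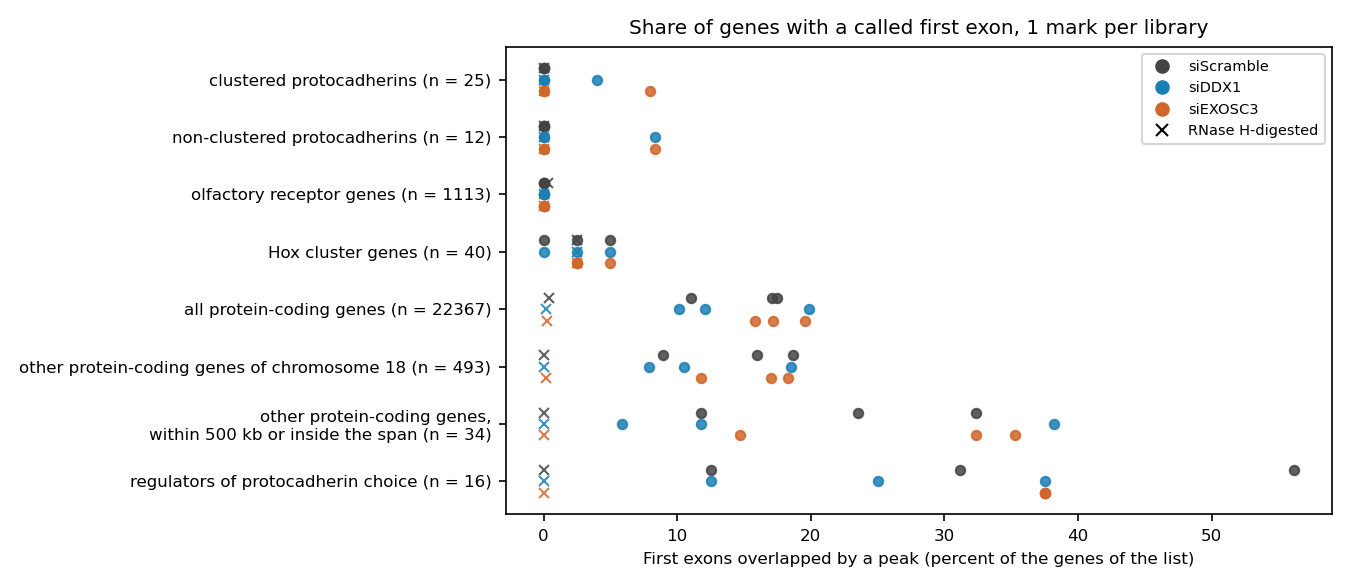
Percent of genes in each list (rows, with the number of genes) whose first exon was overlapped by a peak, with 1 mark per library coloured by title and crosses for RNase H libraries. The clustered protocadherins lie between 0 and 8%, protein-coding genes between 10.1% and 19.9% in the untreated libraries.

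Sequence features of the first exons were read from the mm9 genome. Of the 41 first exons long enough to hold a stretch of the 150-base read length, 32 had no such stretch that occurs elsewhere in the genome. The lowest share of single-copy stretches was 91.5%, in Pcdha11-205, and in the beta exons it was 99.7% or more. Reads over the beta exons could thus be placed on 1 gene almost everywhere, and for alpha exons such as Pcdha11-205 and Pcdha11-206 (94.2%) a small part could not.

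Beta starts were poor in GC and CpG. In the start and 500 bases on each side, median GC content was 41.6% for beta, 47.2% for alpha and 49.2% for gamma first exons, against 61.3% for protein-coding genes called in at least 1 untreated library and 52% for those not called. The CpG observed over expected ratio had medians of 0.396 for beta, 0.706 for alpha and 0.658 for gamma, against 0.781 for called and 0.383 for uncalled protein-coding genes. Pcdha11-202 and Pcdhgc5-208, both called, had the highest GC content of all 42 starts at 67.3% and 58.4%, with CpG ratios of 0.794 and 0.798. The next highest was the uncalled Pcdha11-201 at 57.4%, with a CpG ratio of 0.606. Pcdhgc5-206 (45.8% and 0.744) and Pcdhgc5-203 (52.8% and 0.247) were called with other compositions, and Pcdhgc5-204, with the highest CpG ratio of 0.893, was not called. The peaks that gave these calls began more than 500 bases after the start, outside this window. Over the whole first exon, GC content was 54.5% for Pcdha11-202, 56.8% for Pcdhgc5-208, 50.6% for Pcdhgc5-206 and 54.9% for Pcdhgc5-203. The uncalled Pcdha11-203 had 55.1%. The part of base composition in the calls was not tested.

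**Figure D5:**
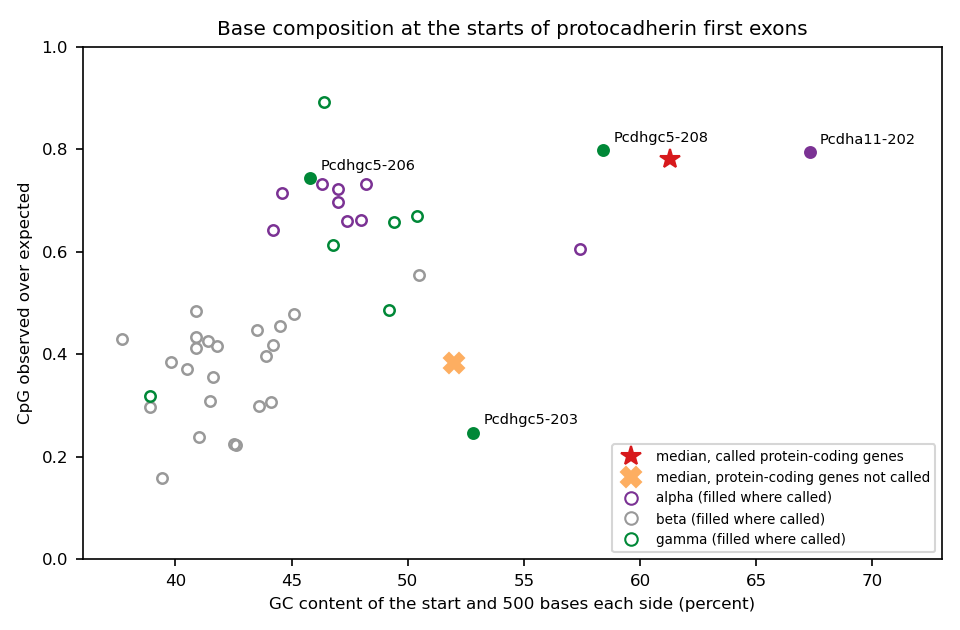
GC content (percent, horizontal axis) and CpG observed over expected ratio (vertical axis) of the start and 500 bases on each side for the 42 first exons, with called exons filled and named. The star and the cross mark the medians of protein-coding genes that were called (61.3% and 0.781) and not called (52% and 0.383).

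The DNA was cut before the pull-down with BsrGI (TGTACA), EcoRI (GAATTC), HindIII (AAGCTT), SspI (AATATT) and XbaI (TCTAGA), and these recognition sites are shown because they set the length of the pieces that carry a hybrid. The sites are palindromes and were searched as 1 set. A cut fell within 500 bases of the start in 38 of 42 first exons (90.5%), against 60.6% of protein-coding genes. The restriction fragment that holds the start had a median length of 946 bases over the 42 first exons, against 2100.5 for called and 1330 for uncalled protein-coding genes. Of the 4 called first exons, Pcdha11-202 and Pcdhgc5-208 started on fragments of 2319 and 3287 bases, and Pcdhgc5-206 and Pcdhgc5-203 on shorter ones of 1046 and 827 bases. The peaks that called Pcdhgc5-203 lay past its start fragment. They began 1047 bases after the start in siEXOSC3 replicate 3 and 2514 bases after it in siDDX1 replicate 2. Long fragments also held uncalled starts, such as Pcdhgc5-210 (3319 bases), Pcdhgc5-204 (2445 bases) and Pcdhb17 (3538 bases). All 13 Taf7 peaks had an edge on a cut. Of the 48 other untreated peaks in the span and 5 kb around it, 37.5% did, against 52.7% to 64.6% of all peaks per untreated library. The part of fragment length in the calls was not tested.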

How the data were processed

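The deposited lists are MACS2 narrowPeak files with 1 row per peak. Per the labels and the study's methods, reads of 150 bases were aligned to mm9 with Bowtie2 2.4.4, and peaks were called by the authors in each library with MACS2 2.2.6 against an input library, which was not analysed here. Bowtie2 was run with default settings, under which a read that fits several places equally well is placed at one of them at random. For each peak the deposited columns hold a display score, a fold enrichment, which is a linear ratio over background, a −log10 p-value and a −log10 q-value, computed by the authors' peak caller. The score, the −log10 p-value and the summit column were not used.

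Members, gene lists and the rule for first exons were chosen with earlier results of these data known. The value of a gene in a library was the number of bases of its first exon covered by peaks, for the transcript with the longest coding sequence, and overlapping peaks were merged. Genes without a covered base in any library of a comparison were left out of its test. Groups were compared with an exact permutation F test over the 280 ways to form 3 groups of 3 libraries (smallest p 0.00357), and RNase H with an exact two-sided permutation test over 64 assignments (smallest p 0.015625), both adjusted by Benjamini-Hochberg over all genes tested. Constant exons are those shared by at least 5 transcripts of a cluster. Named members are those called in at least 3 untreated libraries, those past a threshold, those called after RNase H digestion and C-type genes. Pcdha11, Pcdha3 and the single first exons fall outside that rule and were named after their values were seen. Code was tested on simulated data and run in Python 3.11.15 with numpy 2.4.6.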

Additional observations from a re-analysis of the deposited data

How the results depend on the processing

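Calls at the members rested on weak peaks. The 2 members called became 0 at a −log10 q of at least 5, 1 with every list shortened to the same number of peaks, 1 with the start and 1000 bases on each side in place of the first exon, and 0 where at least 0.5 of the exon had to be covered. Leaving out 1 library at a time gave between 1 and 2 members, with 1 without siEXOSC3 replicate 3. With the union of all first exons of a gene, the mean number of members called per library went from 0 to 0.667 in siScramble, from 0.333 to 0.667 in siDDX1 and from 0.667 to 1 in siEXOSC3. With lists of equal length it went to 0 in siEXOSC3 and stayed at 0 and 0.333 in siScramble and siDDX1. Constant exons with an unadjusted p under 0.05 numbered 0, and between 0 and 1 when 1 library was left out, with 1 without siEXOSC3 replicate 1. No alternative gave a member an adjusted p under 0.05. Over the alternatives, the exact permutation p lay between 0.25 and 1 for Pcdha11 and between 0.464 and 1 for Pcdhgc5.

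Over all genes, the 130 with an unadjusted p under 0.05 across groups became 80 at the stricter q, 79 with at least 0.5 covered, 315 around starts, 315 without siDDX1 replicate 1 and 229 without siEXOSC3 replicate 2. All-or-none exons over the 3 pairs numbered 269, and between 377 and 881 when 1 library was left out, where fewer libraries have to be called. Replicate numbers did not pair the libraries. Deviations from group means correlated between -0.457 and 0.189 in 9 same-number pairs, and 3 of these exceeded 0.1. With the replicate number as a block, 8 genes had an unadjusted p under 0.05, no gene passed adjustment, and exact permutation tests gave both members p = 1 and gamma constant exon 3 p = 0.333. The constant exons were not computed under every alternative on first exons. Depth is unknown, so a weak enrichment may have gone uncalled in the shorter lists.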
